A study of Mus musculus with 21 samples.

Results

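The comparison described here is that of 2 neighbouring pieces of mouse presomitic mesoderm (PSM), part 6 and part 5 of 7, each measured on 3 Affymetrix arrays, so that 6 of the study's 21 arrays carry the contrast. The arrays were chosen by their titles alone. Both groups come from embryos of CD-1, an outbred mouse stock, staged E8.5 in the labels and 9.0 dpc (days after mating) in the protocol. Each embryo was exposed to pancreatin (2 mg/ml, 1 min), and ectoderm, endoderm and lateral plate were taken off before the PSM was cut. The labels name no allele and no treatment that differs between the groups, and the labels do not say at which end the numbering starts. Left and right PSM of 1 embryo and the PSM of another embryo were used, without a statement of which replicate is which. The 3 arrays of a part therefore do not stand for 3 embryos, since some of them share one. A p-value here reflects no more than the scatter among the arrays.

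The PSM is the unsegmented mesoderm beside the caudal neural tube. Its cells are kept immature by Wnt and FGF signals at the tail end, mature as retinoic acid signalling takes over at the head end, and are cut off in blocks, the somites, at intervals set by a Notch-driven clock. At the cutting front the T-box factor Tbx6 and the Notch pathway switch on Mesp2, which fixes the segment boundary and the difference between the rostral and caudal compartments of the next somite. The young somite then becomes epithelial and starts to read Hedgehog, Wnt and BMP signals from the tissues around it. Values below are log2 signals, that is log2(MAS5 signal + 16), on which a signal of 0 reads 4. A difference is part 6 minus part 5 on that scale, folds are taken from it and understate the change of low genes, and levels of different genes are not comparable.

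Replicate 2 of part 5 lay nearest to the lower part numbers on the score below, though not apart from its group in correlation over all genes. To place each array by genes not chosen for a difference between parts 5 and 6, genes were taken that differ between part 7 and part 4 (limma, adjusted p under 0.05). Of 12143 genes tested 268 were higher in part 7 (2.21%) and 218 lower (1.8%). The fit covered all 21 arrays, so parts 5 and 6 entered its residual spread. The distance between parts 4 and 7 on this score follows from the choice of genes. The mean log2 signal of the 268 minus that of the 218 lay between -1.94 and -1.56 in all 12 arrays of parts 1 to 4. It was -0.56, -1.18 and -0.82 in part 5 replicates 1, 2 and 3, then 0.32, 0.17 and 0.27 in part 6, and 0.93, 0.35 and 0.73 in part 7. The arrays of parts 5 and 6 thus did not overlap, and part 5 replicate 2 was the nearest of its group to the lower part numbers. Its mean log2 signal over a list of tailbud progenitor genes was 6.751, against 5.890 and 5.998 in part 5 replicates 1 and 3. That was also above the arrays of part 4, at 6.211, 6.452 and 6.369. Over a list of neural tube markers its mean, 6.369, was the highest of all 21 arrays. Over all genes its mean Spearman correlation was 0.975 with the arrays of part 4. It was 0.972 with the other arrays of part 5 and 0.966 with those of part 6. The same values were 0.960, 0.966 and 0.966 for part 5 replicate 1, and 0.971, 0.969 and 0.968 for part 5 replicate 3. The mean MAS5 signal of all 21 arrays lay between 151 and 154. Results are given with and without part 5 replicate 2.

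**Figure D1:**
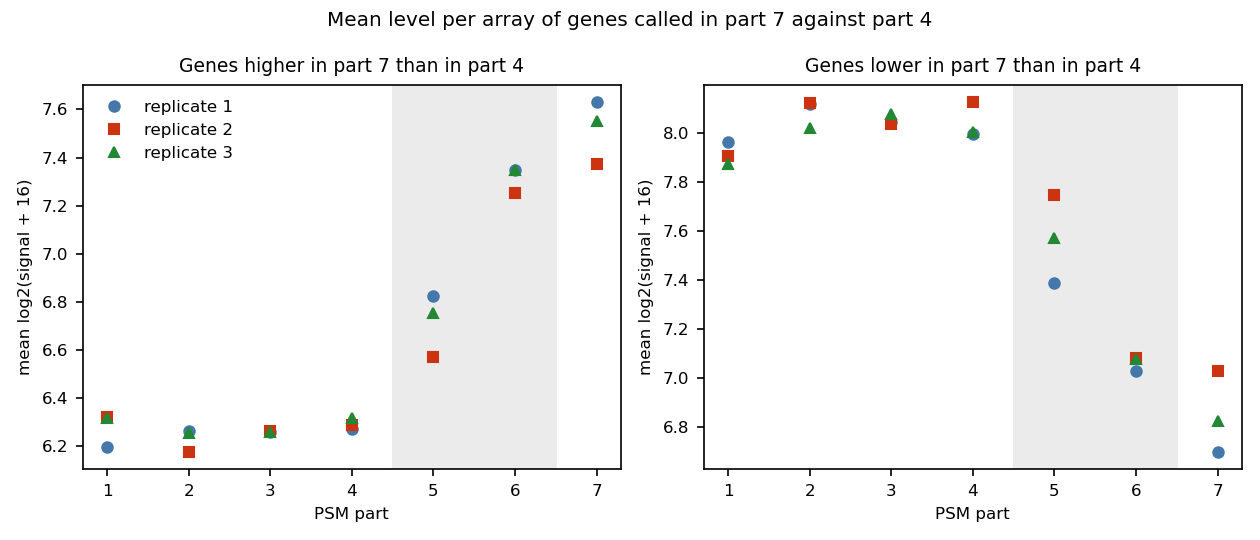
Mean log2(MAS5 signal + 16) per array by PSM part, for the 268 genes higher (left) and the 218 lower (right) in part 7 than in part 4. Symbols mark replicates and grey shading marks parts 5 and 6. Parts 1 to 4 lie level, part 5 is intermediate with replicate 2 nearest to part 4, and the 3 arrays of part 6 lie beyond all of part 5.

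Of 12143 genes tested, 59 were called at an adjusted p under 0.05, or 0.486%, of which 46 (0.379%) were higher in part 6 and 13 (0.107%) lower. The higher genes differed by 1.56-fold to 5.54-fold and the lower ones by 1.52-fold to 4.09-fold, and 44 of the 59 by more than 2-fold. The largest rises were those of Itih5, the somite gene Uncx, the vitronectin gene Vtn, Dmrt2 and Sox6, and the largest falls those of Mpzl2, the Wnt enhancer gene Rspo3, Serpina3a, Tbx6 and Wnt5a. The 3 arrays of part 6 lay wholly on one side of those of part 5 in each of the 59, as they did for 7.36% of all genes upward and 4.52% downward. A difference in the share of a cell type and one in RNA per cell cannot be told apart in such bulk pieces. Without part 5 replicate 2 there were 17 calls (0.14%), 16 of them among the 59, and all 59 kept their sign, with differences a median of 0.924 times as large. Part 5 replicate 2 was the array of its group farthest from the part 6 mean in 39 of the 59, against 32.5% of all genes. Counts without a single other array were 36 without part 6 replicate 1, 36 without part 6 replicate 3, and 41 to 51 without the others. Same-numbered arrays of both parts deviated together, and with a block for the replicate number 142 genes (1.17%) were called, all 59 included, with 89 higher (0.733%) and 53 lower (0.436%), a more even split than without the block. With the block and without part 5 replicate 2 it was 81 (0.667%), 51 of the 59 included. The 8 not among those 81 were Ccnd1, Foxl2os, Lrrc4, Pdxk, Spon1, Tagln2, Tmem170b and Zfp536. Adjusted p-values given below for genes of the 59 without part 5 replicate 2 are from the fit with no block, so a call lost there was regained with the block for all but these 8. The 14 genes called whichever 1 of the 6 arrays was left out were Boc, Depdc7, Dtx1, Frmd4a, Plch1, Rspo3, Sim1, Sox6, Spry1, Stum, Tbx6, Tmeff2, Uncx and Vtn. The 1 call without part 5 replicate 2 that is not among the 59 was Retreg1 (adjusted p = 0.0305, and 0.065 with that array, or 0.0188 with that array and the block).

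**Figure D2:**
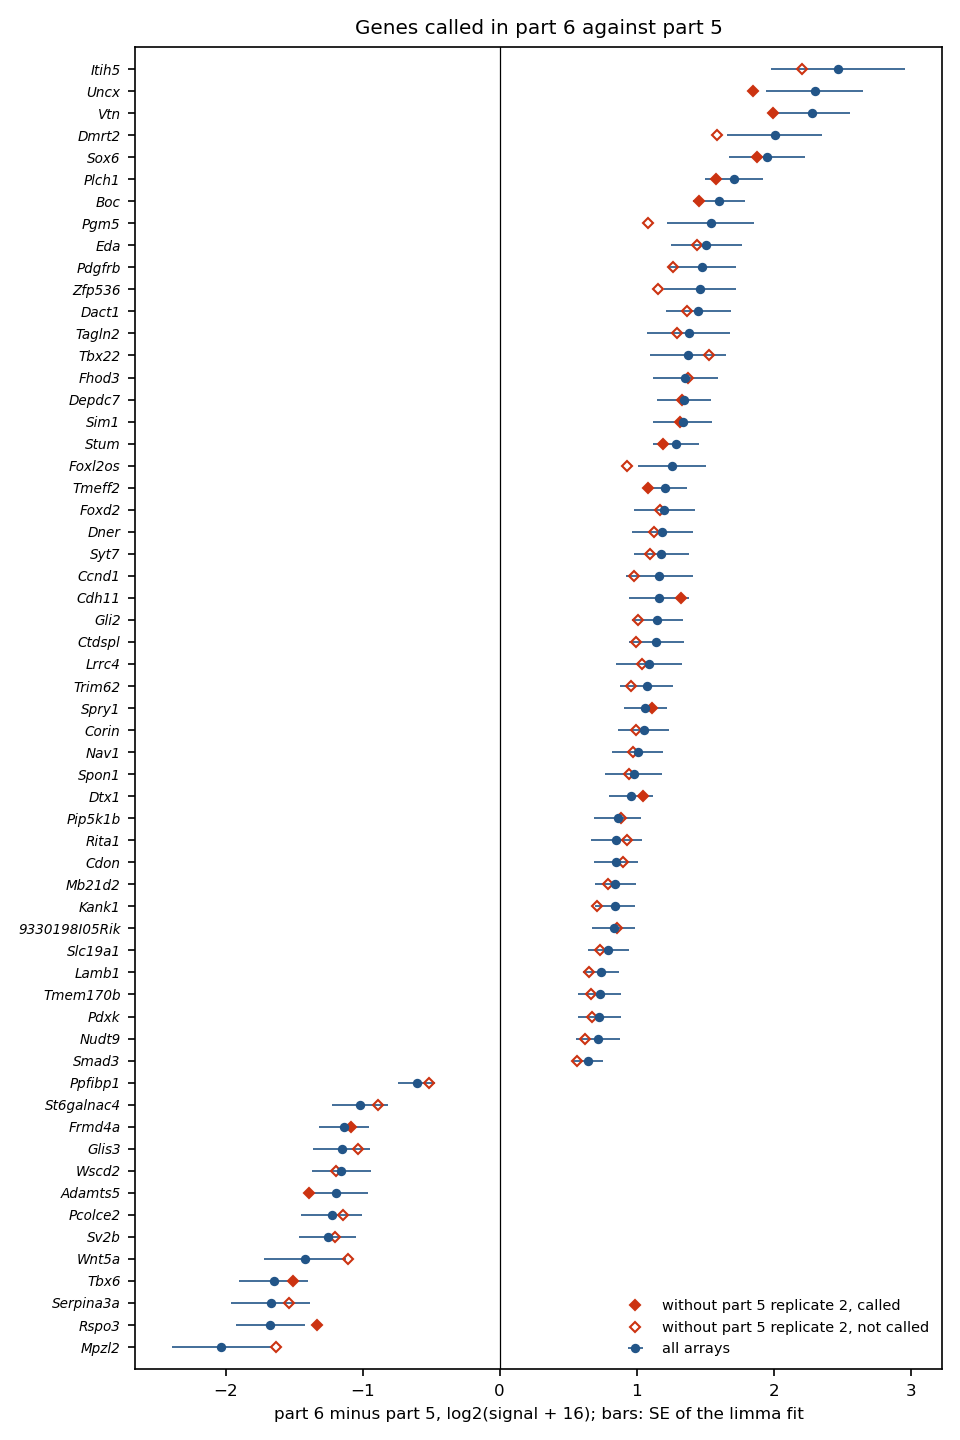
Difference, part 6 minus part 5 in log2(MAS5 signal + 16), of the 59 called genes with the SE of the fit (blue), and without part 5 replicate 2 (red diamonds, filled where still called). The 46 genes on the right are higher in part 6 and the 13 on the left lower, and every red diamond lies on the same side of 0 as its blue point.

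Of the genes on the segment boundary and somite polarity lists, 3 were called higher in part 6, Uncx, Dmrt2 and Tbx22, and 1 lower, Tbx6. Over all genes 0.379% were called higher and 0.107% lower. Uncx, a homeobox gene that marks the caudal compartment of somites, had log2 signals of 7.91, 5.73 and 6.24 in part 5 and 8.84, 9.23 and 8.72 in part 6. Part 5 replicate 1 was the highest of its group yet below all of part 6. Uncx was 4.93-fold higher in part 6 (difference 2.30 ± 0.36, SE, n = 3 arrays each; adjusted p = 0.00361, and 0.0266 without part 5 replicate 2). Tbx6, the T-box factor of immature paraxial mesoderm, read 7.83, 8.14 and 7.62 in part 5 and 6.48, 6.10 and 6.06 in part 6. It was 3.14-fold lower in part 6 (-1.65 ± 0.25; adjusted p = 0.00327, and 0.0316 without part 5 replicate 2), and its groups were tight and apart. Dmrt2, a factor needed for somite patterning, read 7.49, 5.62 and 6.29 in part 5 and 8.20, 8.70 and 8.53 in part 6, with the lowest value in part 5 replicate 2. Its 4.02-fold rise (2.01 ± 0.35; adjusted p = 0.0074) missed the threshold without that array (1.58; adjusted p = 0.0608). The T-box gene Tbx22 read 4.03, 4.64 and 4.31 in part 5, near the floor of 4, and 5.56, 5.15 and 6.39 in part 6. It was 2.59-fold higher in part 6 (adjusted p = 0.0203), and the call was lost without any single array but 1 (adjusted p up to 0.126).

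Promoters of the genes with the 3 largest rises and of Tbx6 are printed here as examples. Each is given as the 250 bases before the RefSeq start site in assembly GRCm38.p6, with TGGGAA, the core bound by the Notch effector Rbpj, in capitals.
Itih5 (chr2:10153293-10153542, + strand): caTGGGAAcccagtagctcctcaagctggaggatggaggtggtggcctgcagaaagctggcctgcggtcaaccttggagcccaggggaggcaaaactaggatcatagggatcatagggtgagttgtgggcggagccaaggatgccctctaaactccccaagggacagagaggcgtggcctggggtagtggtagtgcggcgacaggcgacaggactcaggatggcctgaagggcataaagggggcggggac
Uncx (chr5:139543648-139543897, + strand): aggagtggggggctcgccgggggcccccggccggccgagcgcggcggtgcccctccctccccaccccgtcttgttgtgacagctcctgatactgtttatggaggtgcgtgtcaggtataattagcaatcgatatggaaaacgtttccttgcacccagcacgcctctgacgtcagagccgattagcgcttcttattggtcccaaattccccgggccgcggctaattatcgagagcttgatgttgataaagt
Vtn (chr11:78498870-78499119, + strand): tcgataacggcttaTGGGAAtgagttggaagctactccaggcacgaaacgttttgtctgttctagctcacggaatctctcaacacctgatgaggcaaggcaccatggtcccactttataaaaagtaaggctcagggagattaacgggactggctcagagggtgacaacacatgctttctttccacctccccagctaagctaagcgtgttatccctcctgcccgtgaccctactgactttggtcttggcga
Tbx6 (chr7:126781233-126781482, + strand): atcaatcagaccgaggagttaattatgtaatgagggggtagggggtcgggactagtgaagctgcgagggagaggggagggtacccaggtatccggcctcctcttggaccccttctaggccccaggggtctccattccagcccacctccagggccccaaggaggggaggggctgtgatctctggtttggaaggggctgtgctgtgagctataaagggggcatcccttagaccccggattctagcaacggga
TGGGAA stood 248 bases before the start of Itih5 and 236 before that of Vtn, and not in these windows of Uncx and Tbx6. RefSeq promoters of 300 bases, 250 before and 50 after the start, were matched for 45 of the 59 genes, 60 promoters in all. On either strand TGGGAA was in 23.9% of 46 promoters of higher genes, 28.6% of 14 of lower genes, 23.1% of the 12543 of tested genes and 25.6% of all 32851. The T-box core AGGTGTGA was in 0 of the 60, 0.821% of those of tested genes and 1.28% of all. The E-box CATATG was in 0 of the 60, 1.74% and 3.91%. The E-box CAAATG was in 6.52% of those of higher genes and 14.3% of those of lower genes, or 3 and 2 promoters, against 8.86% and 13.7%. A match describes letters in a window, not a bound site.

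The other genes of these lists did not pass, Mesp2 and Ripply2 among them. Mesp2 read 7.26, 7.55 and 9.59 in part 5 and 6.70, 6.43 and 5.79 in part 6, lower without overlap but with a wide spread in part 5 (difference -1.83 ± 0.71, SE; adjusted p = 0.526). Ripply2, which represses Tbx6 activity at the boundary, read 11.09, 10.31 and 8.32 against 9.32, 10.52 and 7.54, and its groups overlapped (adjusted p = 0.965). The same held for Mesp1, for Cer1, a secreted antagonist (0.89 ± 0.45; adjusted p = 0.737), for Lfng, which modifies Notch (0.34 ± 0.44), and for Efnb2 (0.20 ± 0.55). Epha4, the Eph receptor of the boundary, was at 10.79, 10.56 and 10.13 against 9.71, 9.90 and 9.14 (-0.91 ± 0.50; adjusted p = 0.782), and the protocadherin gene Pcdh8 differed by -0.38 ± 0.83. Dll1, the main Notch ligand of the PSM, read 8.45, 10.21 and 10.09 in part 5 and 7.07, 7.88 and 8.01 in part 6. It missed the threshold (-1.93 ± 0.45; adjusted p = 0.069) and passed it with a replicate block (adjusted p = 0.00126). With the block and without part 5 replicate 2 Dll1 still passed (adjusted p = 0.0186). Dll3, a ligand that acts within the cell, also passed with the block alone (-1.05 ± 0.27; adjusted p = 0.114, and 0.0416 with the block), but not once part 5 replicate 2 was left out as well (adjusted p = 0.162). Hes7, the repressor of the clock, differed by -1.70 ± 0.44 and passed in neither fit (adjusted p = 0.123 and 0.0591). Of 14 segment boundary genes tested 1 rose and 1 fell, with a median difference of -0.20 against 0.02 over all genes, and of 12 polarity genes 2 rose, Uncx and Tbx22, with a median of 0.25, or 0.08 without part 5 replicate 2. Of 16 posterior presomitic genes 2 fell, Tbx6 and Rspo3, with a median of -0.48, and of 25 tailbud progenitor genes 0 passed, with a median of -0.32, or -0.11 without part 5 replicate 2. The shares beside these list counts were 0.379% of all genes called higher and 0.107% lower. Msgn1, a defining gene of the posterior PSM, was close to the floor in both parts (means 4.55 and 4.39).

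**Figure D3:**
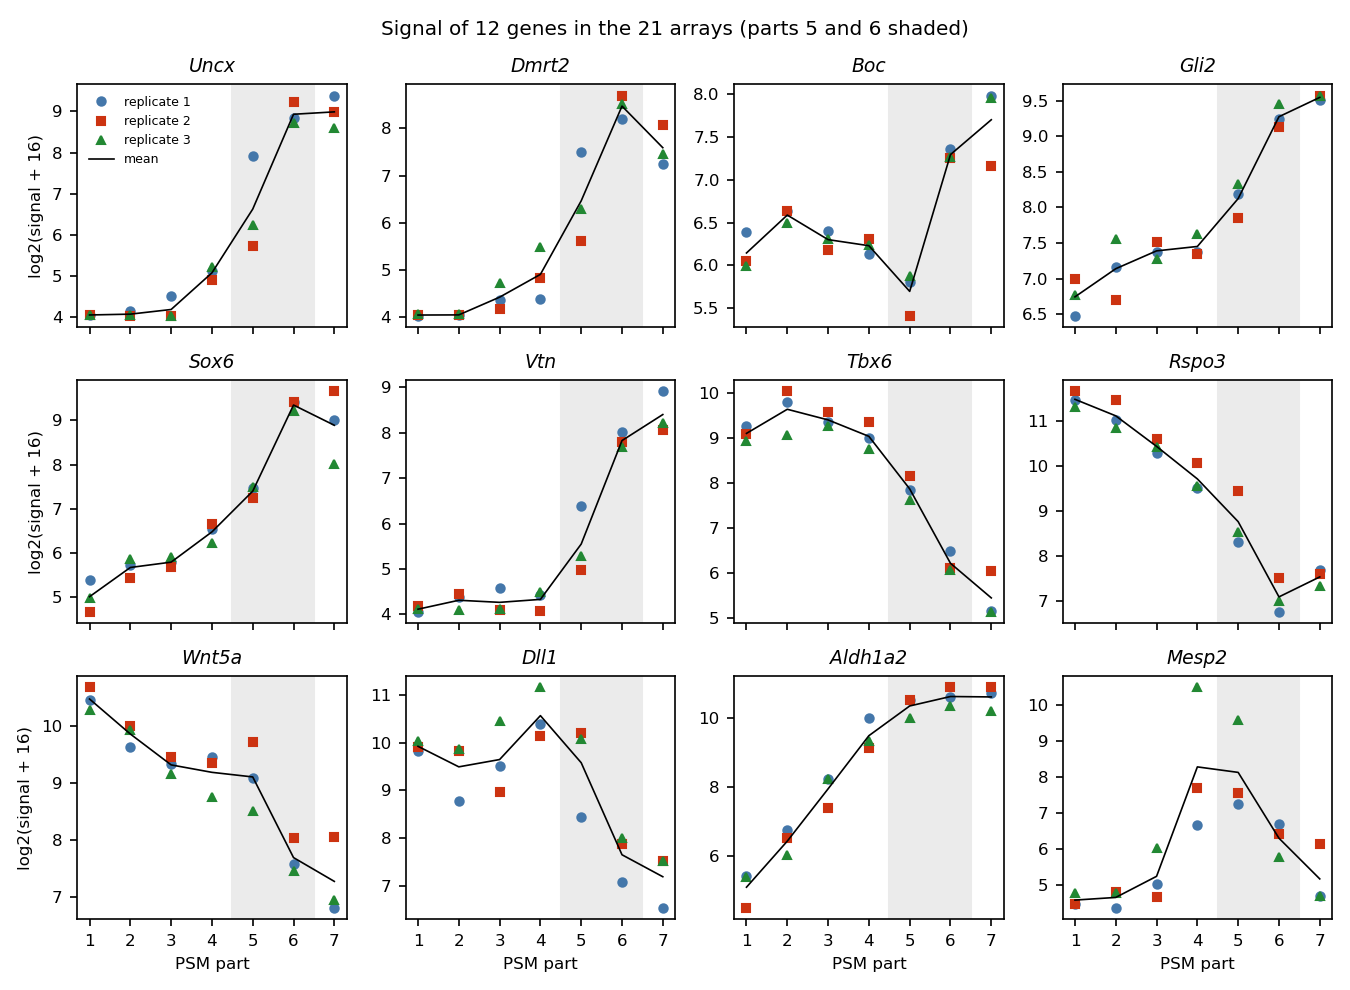
Log2(MAS5 signal + 16) of 12 genes in all 21 arrays by PSM part. Symbols mark replicates, lines join the part means and grey shading marks parts 5 and 6. Uncx, Dmrt2, Boc, Gli2, Sox6 and Vtn are higher in all arrays of part 6 than of part 5, Tbx6, Rspo3 and Wnt5a lower, Dll1 and Mesp2 are lower without a call, and Aldh1a2 had reached a mean of 10.36 in part 5 against 10.64 in part 6.

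Of the transcription factor genes of somites and their derivatives described here, Sox6, Sim1 and Foxd2 were higher in part 6, while others such as Meox1 did not pass. Sox6, a factor of later cartilage and muscle development, read 7.46, 7.25 and 7.48 in part 5 and 9.41, 9.41 and 9.22 in part 6, a narrow range in each group. It was 3.88-fold higher (1.96 ± 0.28, SE; adjusted p = 0.00214, and 0.0179 without part 5 replicate 2), and 3 further probe sets, weaker in signal, gave differences of 1.38, 1.74 and 0.45. Sim1, a bHLH-PAS factor, read 6.68, 6.93 and 7.32 against 8.07, 8.44 and 8.43 and was 2.52-fold higher (adjusted p = 0.00506). The forkhead gene Foxd2 read 5.13, 5.24 and 5.53 against 6.79, 6.03 and 6.69 and was 2.30-fold higher (adjusted p = 0.0113, but 0.0797 without part 5 replicate 2). Its relative Foxd1 differed more but less evenly (8.67, 8.18 and 8.37 against 9.52, 10.19 and 10.14; 1.54 ± 0.41; adjusted p = 0.13), and passed with the block (adjusted p = 0.0285), though not without part 5 replicate 2 as well (adjusted p = 0.178). Meox1, a homeobox gene of early somites, read 11.32, 11.19 and 11.17 against 11.56, 11.59 and 11.60 (0.36 ± 0.39; adjusted p = 0.936). The retinoic acid synthesis gene Aldh1a2 differed by 0.28 ± 0.30, Foxc2 by -0.03 ± 0.28, Meox2 by 0.18 ± 0.35, Pax3 by 0.51 ± 0.35, Foxc1 by -0.37 ± 0.30 and Tbx18, the rostral counterpart of Uncx, by 0.35 ± 0.52. None of these passed. Tcf15, needed for somites to become epithelial, read 10.80, 9.83 and 9.89 against 11.31, 11.05 and 11.01 and passed with the block (0.95 ± 0.28; adjusted p = 0.204, and 0.0325 with the block), though not without part 5 replicate 2 as well (adjusted p = 0.206). Of 18 somite differentiation genes tested 2 were called higher, Sim1 and Dact1, and 0 lower, against 0.379% and 0.107% of all genes. The median difference was 0.35.

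Of 12 Hedgehog pathway genes tested, 3 were called higher in part 6, against 0.379% of all genes. They were the co-receptor genes Boc and Cdon and the transcription factor gene Gli2, and 1 of them, Boc, was still called without part 5 replicate 2. Boc read 5.81, 5.40 and 5.88 in part 5 and 7.36, 7.25 and 7.27 in part 6. The groups were more than 1 unit apart, and the 3.03-fold difference (1.60 ± 0.19, SE; adjusted p = 0.000616) held without part 5 replicate 2 (1.45; adjusted p = 0.00885). Over all 7 parts the mean of Boc was lowest in part 5, at 5.70, and highest in part 7, at 7.70. Gli2, a transcription factor of the pathway, read 8.19, 7.84 and 8.34 against 9.25, 9.13 and 9.45 and was 2.22-fold higher (1.15 ± 0.19; adjusted p = 0.00602). Without part 5 replicate 2 it just missed (1.01; adjusted p = 0.0557). Cdon, a co-receptor related to Boc, read 6.55, 6.81 and 6.77 against 7.62, 7.44 and 7.61 and was 1.80-fold higher (adjusted p = 0.0129, but 0.0601 without part 5 replicate 2). None of the 12 was called lower, 2 had lower means in part 6, and the median difference was 0.19. The other 9 did not pass. Ptch1, the Hedgehog receptor gene and itself a target of the pathway, had the lowest difference of the list (-0.42 ± 0.49; adjusted p = 0.947), and the receptor component genes Smo and Gas1 differed by 0.09 and 0.04. The target Gli1 (0.30 ± 0.32; adjusted p = 0.932), Gli3 (0.39 ± 0.24) and Disp1 (0.58 ± 0.21) did not pass either. Shh, the ligand, had means of 5.48 and 5.35.

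Wnt genes went both ways with all arrays fitted. Without part 5 replicate 2, in the fit with no block, 0 rises and 1 fall, that of Rspo3, were still called. Rspo3, a secreted enhancer of Wnt signalling, read 8.30, 9.45 and 8.54 in part 5 and 6.75, 7.52 and 7.00 in part 6. It was 3.19-fold lower (-1.68 ± 0.25, SE; adjusted p = 0.00275, and 0.0179 without part 5 replicate 2, its highest array). Wnt5a, a ligand of non-canonical Wnt signalling, read 9.09, 9.73 and 8.51 against 7.58, 8.04 and 7.45 and was 2.68-fold lower (-1.42 ± 0.30; adjusted p = 0.0326). All 4 of its probe sets were lower in part 6, with differences from -1.42 to -0.57, yet the call was lost without part 5 replicate 2 (-1.11; adjusted p = 0.263). Dact1, an intracellular modulator of Wnt signalling, read 9.20, 9.40 and 10.09 against 10.69, 11.13 and 11.21, a 2.73-fold rise (1.45 ± 0.24; adjusted p = 0.00602, and 0.0533 without part 5 replicate 2). The cyclin gene Ccnd1 was 2.24-fold higher (8.61, 7.92 and 8.33 against 9.54, 9.22 and 9.59; adjusted p = 0.0326, up to 0.263 when single arrays were left out, the highest being without part 5 replicate 2). Of 41 Wnt pathway genes tested these 2 rose and these 2 fell, against 0.379% and 0.107% of all genes, with a median of -0.06. The Wnt antagonist gene Nkd2 read 7.24, 7.43 and 6.80 against 6.00, 6.21 and 5.50, and passed with the block (-1.26 ± 0.48; adjusted p = 0.507, and 0.0186 with the block), though not without part 5 replicate 2 as well (adjusted p = 0.0605). Wif1 (0.87 ± 0.23; adjusted p = 0.135) and Axin2 (0.66 ± 0.29; adjusted p = 0.627) did not pass.

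The FGF and Notch lists held 1 call each and the BMP and TGF-beta list 0, against 0.486% of all genes. Spry1, a feedback inhibitor of FGF signalling, read 6.53, 6.63 and 6.45 in part 5 and 7.36, 7.88 and 7.56 in part 6 and was 2.09-fold higher (1.06 ± 0.16, SE; adjusted p = 0.00265, and 0.0154 without part 5 replicate 2). It was the 1 call among 31 FGF pathway genes, whose median was 0.02. Shisa3, an inhibitor of Wnt and FGF receptors, passed with the block (-1.27 ± 0.40; adjusted p = 0.288, and 0.00387 with the block), and still did without part 5 replicate 2 (adjusted p = 0.0461). Fgf9, whose groups overlapped, passed with the block (-1.16 ± 0.33; adjusted p = 0.17, and 0.0386) but not without part 5 replicate 2 as well (adjusted p = 0.229). Fgf8 was near the floor in both parts, with means of 4.29 and 4.05. Dtx1, an E3 ligase of the Notch pathway, read 5.72, 6.02 and 5.77 against 6.98, 6.66 and 6.74 and was 1.94-fold higher (0.96 ± 0.16; adjusted p = 0.00607, and 0.0179 without part 5 replicate 2). It was the 1 call of 30 Notch genes, with a median of 0.04. Jag1, a Notch ligand, read 8.31, 6.94 and 7.49 against 9.01, 9.13 and 8.65 and passed with the block (1.35 ± 0.33; adjusted p = 0.1, and 0.0329), though not without part 5 replicate 2 as well (adjusted p = 0.242). Outside the list, the Notch-related genes Dner (2.28-fold; adjusted p = 0.0119) and Rita1, whose product binds Rbpj (1.81-fold; adjusted p = 0.0454), were higher in part 6, and both lost the call without part 5 replicate 2 (adjusted p = 0.0888 and 0.0937). Rita1 lost it whichever 1 of the 6 arrays was left out (adjusted p up to 0.281), and Dner also without part 5 replicate 3 or part 6 replicate 1 (up to 0.107). Of 30 cyclic genes the 1 call was Dact1. None of 33 BMP and TGF-beta genes passed, the ligand gene Bmp7 coming close (0.87 ± 0.21; adjusted p = 0.0865, and 0.0129 with the block, or 0.0569 with the block and without part 5 replicate 2), while Smad3, which carries TGF-beta and activin signals, was outside that list and 1.56-fold higher (mean 9.90 in part 5 and 10.54 in part 6; adjusted p = 0.00787, and 0.0762 without part 5 replicate 2). A second Smad3 probe set of low signal differed by -0.16.

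Several called genes encode matrix or adhesion proteins, of which Lamb1 and Adamts5 are on the matrix list and Cdh11 on the cadherin list, while Itih5, Vtn, Spon1, Pcolce2 and Mpzl2 are on neither. Itih5, a secreted protein that binds hyaluronan, read 5.00, 4.62 and 5.82 in part 5 and 7.71, 7.33 and 7.82 in part 6. Its 5.54-fold difference was the largest rise called (2.47 ± 0.49, SE; adjusted p = 0.0199), with 2.23 and 1.05 from its other probe sets, but the call was lost when any of 5 of the 6 arrays was left out (adjusted p up to 0.178). Vtn, which encodes the adhesive glycoprotein vitronectin, read 6.38, 4.99 and 5.28 against 8.01, 7.79 and 7.69. It was 4.85-fold higher (2.28 ± 0.28; adjusted p = 0.000616, and 0.00885 without part 5 replicate 2). In parts 1 to 4 its means lay between 4.12 and 4.33, close to the floor. The laminin gene Lamb1 was 1.67-fold higher (10.56, 10.30 and 10.57 against 11.15, 11.15 and 11.35; adjusted p = 0.00797, and 0.081 without part 5 replicate 2), the cadherin gene Cdh11 2.24-fold (7.41, 8.01 and 7.63 against 8.49, 9.11 and 8.93; adjusted p = 0.0113, and 0.0254), and Spon1, which encodes F-spondin, 1.97-fold (adjusted p = 0.039, and 0.209). Cdh11 lost its call without other single arrays (adjusted p up to 0.0832).
Falls in this group were those of the metalloprotease gene Adamts5 (6.58, 5.97 and 6.55 against 4.90, 5.16 and 5.45; 2.29-fold lower; adjusted p = 0.0177), of Pcolce2, an enhancer of procollagen processing (8.14, 8.37 and 8.11 against 7.01, 7.03 and 6.89; 2.34-fold lower; adjusted p = 0.0106), and of Mpzl2, an immunoglobulin-type adhesion molecule. Mpzl2 read 7.21, 8.55 and 7.49 against 5.95, 5.91 and 5.29, with part 5 replicate 2 the highest, and was 4.09-fold lower, the largest fall called (-2.03 ± 0.36; adjusted p = 0.00797). Without part 5 replicate 2 Mpzl2 and Pcolce2 lost the call (adjusted p = 0.0762 and 0.0872), while Adamts5 kept it (0.0263) and lost it without others (up to 0.147). Of 39 matrix and integrin genes 1 rose and 1 fell, of 17 cadherins and protocadherins 1 rose, and the medians were -0.14 and -0.13. Of all genes 0.379% were called higher and 0.107% lower.

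Among the remaining calls was Plch1, a phospholipase C, at 7.39, 7.07 and 7.55 in part 5 and 9.05, 8.93 and 9.16 in part 6 (3.28-fold higher; 1.71 ± 0.21, SE; adjusted p = 0.000616, and 0.0107 without part 5 replicate 2). Stum read 7.53, 7.34 and 7.74 against 8.77, 8.75 and 8.96 (2.44-fold higher; adjusted p = 0.000808), Tmeff2, a membrane protein with follistatin domains, 5.28, 4.86 and 5.20 against 6.27, 6.51 and 6.18 (2.31-fold higher; adjusted p = 0.00116), and Depdc7 5.78, 5.81 and 5.96 against 7.35, 7.31 and 6.92 (2.54-fold higher; adjusted p = 0.00275). All 4 kept their calls without part 5 replicate 2. The receptor gene Pdgfrb was 2.78-fold higher (8.15, 7.41 and 7.91 against 9.50, 9.29 and 9.10; adjusted p = 0.00723), the ectodysplasin ligand gene Eda 2.84-fold, the zinc finger gene Zfp536 2.76-fold, Pgm5 2.91-fold, the actin-binding protein gene Tagln2 2.61-fold and the formin gene Fhod3 2.56-fold. These 6 lost the call without part 5 replicate 2 (adjusted p = 0.064, 0.0601, 0.0762, 0.186, 0.258 and 0.0533), and Tagln2 lost it whichever 1 of the 6 arrays was left out. On the lower side Frmd4a, a scaffold of the Par polarity complex, read 10.56, 10.34 and 9.82 against 9.06, 9.28 and 8.98 (2.20-fold lower; -1.14 ± 0.18; adjusted p = 0.00463, and 0.0364 without part 5 replicate 2). Serpina3a, from a family of close copies whose signals a probe set may not separate, was 3.18-fold lower (adjusted p = 0.0074), the vesicle protein gene Sv2b 2.39-fold, Wscd2 2.23-fold, the zinc finger gene Glis3 2.23-fold, St6galnac4 2.02-fold and Ppfibp1 1.52-fold. These 6 lost the call without part 5 replicate 2 (adjusted p between 0.0533 and 0.318). Of 44 further probe sets of called genes above the signal filter 40 had the sign of the one used, the exceptions being 1 each of Pdxk, Ppfibp1, Smad3 and Trim62.

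The 59 genes were then followed in parts 4 and 7, whose arrays are on neither side of the contrast, though they share its residual spread and its embryos. Of the 46 genes higher in part 6, 42 were also called higher in part 7 than in part 4, 91.3% against 2.21% of all genes, and of the 13 lower ones 12 were called lower, 92.3% against 1.8%. Stum differed by 3.77 ± 0.17 between parts 7 and 4, Vtn by 4.07 ± 0.28, Uncx by 3.91 ± 0.36 and Tbx6 by -3.59 ± 0.25 (SE). The genes that did not pass there were Smad3, Dact1, Rita1 and an unnamed RIKEN gene among the higher, and Adamts5 among the lower. Adamts5 had its highest mean in part 5, at 6.37, between 5.46 in part 4 and 5.17 in part 6. Dact1 was at 10.02 in part 4, 9.56 in part 5, 11.01 in part 6 and 10.77 in part 7. Of the 46 higher genes 22 had their highest mean in part 6, 23 in part 7 and 1, Cdh11, in part 1. Dmrt2 and Sox6 were among those highest in part 6, at 8.47 and 9.35, against 7.59 and 8.89 in part 7. Of the 13 lower genes 5 had their lowest mean in part 6, 6 in part 7 and 2, Serpina3a and Adamts5, in part 1.

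The step was also set against those on either side, which share arrays with it. By the same fit 39 genes (0.321%) were called between parts 4 and 5, of which Pgm5, Plch1 and Stum were called at both steps, and 0 between parts 6 and 7, where 578 genes (4.76%) had an unadjusted limma p under 0.05. Part 7 replicate 2 was the nearest of its group to part 6 on the score above (0.35, against 0.93 and 0.73). Its mean log2 signal over the segment boundary list was 8.652, against 7.265 and 7.197 in part 7 replicates 1 and 3. The arrays of part 6 were at 8.743, 8.818 and 8.298. How far this array bears on the step from part 6 to part 7, and on the direct test below, was not tested. Stum rose by 2.58 ± 0.17 (SE) from part 4 to part 5 and by 1.29 ± 0.17 from part 5 to part 6, and differed by -0.10 ± 0.17 between parts 6 and 7. Uncx differed by 1.55 ± 0.36, 2.30 ± 0.36 and 0.06 ± 0.36 over the same 3 steps. Tested directly, as the step from part 5 to part 6 minus the mean of the steps beside it, 0 genes passed (lowest adjusted p = 0.172, with 379 genes, 3.12%, at an unadjusted limma p under 0.05). Without part 5 replicate 1 it was 1 gene, Uncx (2.46 ± 0.36; adjusted p = 0.0218, against 1.50 and an adjusted p of 1 with that array).

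Marker lists of neighbouring tissues gave 0 calls in either direction. Endothelial markers were the ones that differed most: 16 of 18 tested had lower means in part 6, with a median difference of -0.78, the vessel gene Plvap at -1.46 ± 0.91 and Flt1 at -1.10 ± 0.56 (adjusted p = 0.838 and 0.744). Their mean log2 signal per array was 5.49, 5.27 and 5.85 in part 5 and 5.46, 4.60 and 4.54 in part 6, so the groups overlapped. The median was -0.90 without part 5 replicate 2. Neural tube markers had a median of -0.34, with means of 6.11, 6.37 and 6.07 against 5.80, 5.98 and 5.81, and Fabp7 passed with the block (-1.05 ± 0.48; adjusted p = 0.661, and 0.0098), though not without part 5 replicate 2 as well (adjusted p = 0.0847). Blood markers had a median of 0.24, or 0.02 without part 5 replicate 2, whose blood mean of 6.44 was the lowest of the 6 arrays against 7.05 to 7.31 in the others. The embryonic globin gene Hba-x differed by 1.03 ± 0.75. The medians of the gut endoderm, neural crest, notochord, surface ectoderm, and lateral and intermediate mesoderm lists lay between -0.29 and -0.10. The log2 ratio of 3' to 5' actin signal, a measure of RNA quality and amplification, was 4.30, 3.04 and 3.12 in part 5 and 3.94, 3.27 and 3.59 in part 6, and overlapped. The part of these markers in the falls and rises above was not tested.

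Of the other lists 0 members passed: Hox genes (28 tested, median -0.04), retinoic acid genes (17, 0.03), Eph receptors and ephrins (17, 0.06), guidance genes (28, -0.08), polarity and junction genes (26, 0.00), S and M phase genes (29, 0.01), glycolysis (20, 0.08) and stress and immediate early genes (22, 0.04). The nearest to a call among them were Ephb3 (0.90 ± 0.22; adjusted p = 0.0929, and 0.0375 with the block, or 0.156 with the block and without part 5 replicate 2) and Gadd45b, a stress-inducible gene (0.99 ± 0.25; adjusted p = 0.105). For the 29 lists together the median difference ran from -0.78 to 0.35, against 0.02 over all genes tested.

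**Figure D4:**
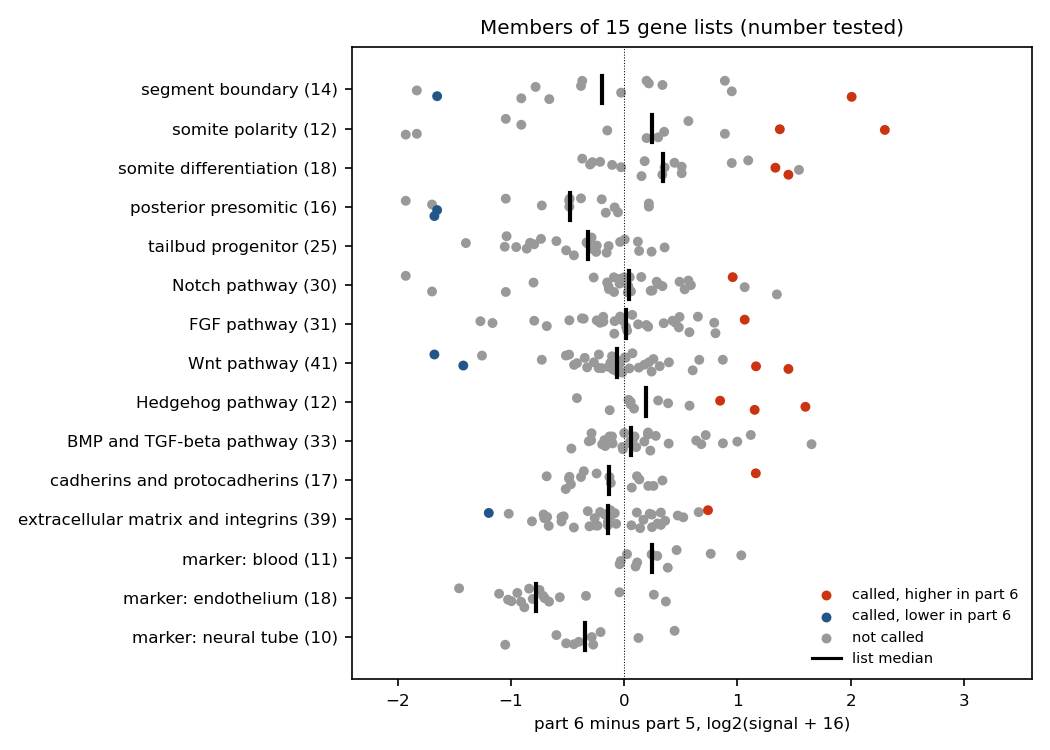
Difference, part 6 minus part 5 in log2(MAS5 signal + 16), of every tested member (points) of 15 gene lists, where black bars give medians and red or blue points are calls higher or lower in part 6. The 3 Hedgehog calls lie to the right, the 2 posterior presomitic calls to the left, and the endothelial median of -0.78 is the lowest, with 0 calls.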

How the data were processed

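Per the labels' protocols, RNA of the PSM pieces went through 2 rounds of amplification before hybridisation to Affymetrix arrays, which favours 3' sequence. Each deposited value is a probe set's intensity on a linear scale, from MAS5 according to the submitters' processing notes, and its settings are not stated in what was used here. Array means were nearly equal, so global shifts are invisible, and precision is limited by the few arrays.

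Of 45101 probe sets, 34945 had 1 gene symbol in the platform annotation, 34741 of them matched to RefSeq by gene ID. Several symbols (932), none (9160) and controls (64) were left out. For each of 18193 genes the brightest probe set on average was used. Genes reaching the median table value, 13.3, in at least 3 arrays were kept, which left 12143. Values were log2(signal + 16). One model without covariates (limma 3.58.1, R 4.3.3, variance trend on) covered all 21 arrays (14 residual degrees of freedom), two-sided, with Benjamini-Hochberg adjustment over all 12143 genes and a threshold of 0.05. Errors are the SE of the fit.

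Deviations from the part means correlated between same-numbered arrays of parts 5 and 6 (r = 0.421, 0.294 and 0.574 over genes, for replicates 1, 2 and 3). Between other arrays r was at most 0.065. Deviations from a part mean cancel out within the part, so these low values follow in part from the same-numbered ones. They are no separate evidence of pairing. The numbers were taken to pair the arrays because of the same-numbered correlations. The fit with a replicate block is given for genes named above whose call on all arrays it changed. Among other list members, the block also called lower Itgb5 of the matrix list (adjusted p = 0.0982 without and 0.006292 with the block). The same held for Fat3 of the cadherin list (0.4869 and 0.02855) and Notch4 of the Notch list (0.2832 and 0.04715). With the block and without part 5 replicate 2 Fat3 did not pass (adjusted p = 0.1479). That fit is not given here for Itgb5 and Notch4. The labels do not say what a number shares.

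Earlier results of these data were known when the contrast, the 29 gene lists and the naming rule were chosen. The rule names the 15 largest calls each way, the 10 largest each way without part 5 replicate 2, called members of each list and up to 3 others, genes behind counts of 5 or fewer, and a set of PSM genes, of which Ripply1 was not analysed here. Other genes named, Foxd2, Smad3, Dner, Rita1, Spon1, Tmeff2, Pdxk, Trim62, Foxl2os, Lrrc4 and Tmem170b, and Ptch1, Smo, Gas1 and Notch4, were chosen after their values were seen, as were part 7 against part 4 and the block without part 5 replicate 2. The fits were tested on simulated data.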

Additional observations from a re-analysis of the deposited data

How the results depend on the processing

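The count of 59 genes called in part 6 against part 5 was 37 with a pseudocount of 1, 26 when only the arrays of parts 5 and 6 were fitted, 101 with array weights and 142 with a replicate block, and ran from 17 to 51 when 1 of the 6 arrays was left out, lowest without part 5 replicate 2. Of the 59, 34, 20, 59 and 59 were among the calls of the first 4 settings. Between 42 and 68 genes were called with pseudocount 64, without a filter or with one at the upper quartile, after quantile or median scaling, without the variance trend, and with probe sets of a gene averaged. None of the 59 genes changed direction under any of the 18 alternatives that tested it, and Boc, Depdc7, Plch1, Sox6 and Tbx6 were called in every one. The test of the step against the steps beside it gave 0 calls in all fits but 1, and 0 to 1 with single arrays left out. The cause of these changes in count was not tested, save that leaving out arrays also leaves fewer to test with. Low signals limit, among other genes, Tbx22, Dner and Trim62, near the floor in part 5, and Wscd2, near it in part 6. Itih5, the largest rise called, was also low in part 5.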
